A study of Mus musculus with 12 samples.

Results

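The Hox genes are described here: 38 listed members of the HoxA, HoxB, HoxC and HoxD clusters, among 38924 genes in the count files. They were listed by gene symbol, with no cut on a measured value, but with earlier results of these data known. Of the 38 members, 37 had a row of counts. The remaining member, Hoxd4, was not analysed here. The study sorted cells from C57BL/6 mice that carried a Cre driver (Myf5-Cre in one line, Ucp1-iCre in the other) and the ROSA mTmG reporter, which switches from membrane tdTomato to membrane GFP in a cell that has expressed the recombinase and in all of its descendants. All 12 libraries therefore carry the reporter and one of the drivers, and the labels name no mouse without a driver. Mammary myoepithelial cells, the contractile basal cells of the gland, were sorted by the gate Lin-:CD24+:CD29hi at day 10 of lactation, as GFP-positive and as GFP-negative cells from each driver line. GFP-positive brown adipocytes came from 8-week-old virgin females of each line. Each of the 6 groups had 2 libraries. The labels do not say whether a library is 1 animal or a pool, so each p-value reflects the spread among these libraries alone, which may be technical. Tissue, body site and lactation changed together between mammary cells and brown adipocytes and cannot be told apart. The labels give no age for the mammary donors, so age may have differed as well. Where GFP-negative mammary cells are set against brown adipocytes, the GFP gate, and with it the history of the driver, changed too.

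Hox genes encode homeodomain transcription factors that give cells of the embryo their position along the head-to-tail axis. They lie in 4 clusters, and genes at the same place in different clusters are paralogues that share a number from 1 to 13. Low numbers sit at the 3′ end of a cluster and are first transcribed far forward in the embryo, while high numbers sit at the 5′ end and are transcribed nearer the tail and, for HoxA and HoxD, towards the tips of the limbs. Many adult cells, fibroblasts above all, keep much of the pattern laid down at their site of origin. In mice, joint mutation of paralogue 9 genes impairs the growth of the mammary gland in pregnancy, and Hoxc8 acts where the mammary placodes form.

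The libraries held between 11027738 and 32956480 counts. The GFP-positive mammary libraries of the Ucp1 line stood apart from the rest, with a count for 10909 and 10560 genes against 13761 to 19794 in the other 10 libraries, and calls between the other groups, whose fit they share, are given with and without them. The summed level of 8 basal myoepithelial markers was between 7972 and 14782 CPM (the usual depth-scaled count, here on library sizes scaled by edgeR's TMM factors) in the 4 GFP-negative mammary libraries, 2175 and 3457 CPM in the GFP-positive libraries of the Myf5 line, and 1284 and 2849 CPM in those of the Ucp1 line. In the Myf5 GFP-positive libraries 6 fibroblast markers summed to 9550 and 17742 CPM, which is more than their own basal markers. Brown adipocyte libraries had 12.2 to 97.6 CPM of basal markers, with Krt5, Krt14 and Krt17 at 0, and 2556 to 24104 CPM of 6 brown adipocyte markers. Mitochondrial transcripts took 12.6% to 36.0% of their counts.

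Of the 37 members with counts, 24 passed the filter on low counts (a minimum count of 10 in edgeR's filterByExpr) and were tested, and 13 did not. Among those 13, 11 were paralogues 9 to 13, and the others were Hoxb1 and Hoxd1. The highest count that any of the 13 reached in any library was 11. Hoxa10, Hoxb13, Hoxc11, Hoxc12 and Hoxd12 had no read in any of the 12 libraries. A count of 0 allows a level of up to 0.0728 to 0.366 CPM, depending on the library (3 counts, the 95% limit, counting error only). The 5′ ends of the clusters were thus at or near 0 in all of these cells, and what follows concerns paralogues 2 to 10.

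The data separate neighbouring genes of HoxD, on chromosome 2. Hoxd8, Hoxd9 and Hoxd10 were the 3 Hox genes of the highest level in GFP-negative mammary cells, and Hoxd11, which comes next towards the 5′ end, had at most 0.0902 CPM in any library. The bases just before their starts are shown so that the active genes can be read beside their silent neighbour. RefSeq's promoter table (GRCm38.p6) held 22 of the 38 members. Windows run from up to 250 bases before the RefSeq start, 5′ to 3′ on the gene's strand, and stop where GENCODE M21 begins the gene's own transcript. Capitals mark matches on either strand to 6 motifs. The core promoter motifs were the TATA box, searched as TATAAA, the box spelled CCAAT and the GC box, searched as GGGCGG. The motifs of Hox proteins and their partners were the Meis half-site, searched as TGACAG, the homeodomain core, searched as TAATTA, and the joint Pbx-Hox site, searched as TGATNNAT where N is any base. Matches of different motifs could overlap.
Hoxd8, chr2:74704365-74704614 (+): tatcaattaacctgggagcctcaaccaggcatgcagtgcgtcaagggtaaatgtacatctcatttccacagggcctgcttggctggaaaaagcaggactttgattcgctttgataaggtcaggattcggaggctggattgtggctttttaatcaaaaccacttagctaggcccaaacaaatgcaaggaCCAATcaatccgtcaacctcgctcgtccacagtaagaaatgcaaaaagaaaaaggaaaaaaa
Hoxd9, chr2:74697513-74697726 (+): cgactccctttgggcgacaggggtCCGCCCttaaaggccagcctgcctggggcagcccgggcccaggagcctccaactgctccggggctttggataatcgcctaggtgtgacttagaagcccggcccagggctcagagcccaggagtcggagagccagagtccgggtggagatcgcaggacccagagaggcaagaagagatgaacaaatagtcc
Hoxd10, chr2:74691641-74691890 (+): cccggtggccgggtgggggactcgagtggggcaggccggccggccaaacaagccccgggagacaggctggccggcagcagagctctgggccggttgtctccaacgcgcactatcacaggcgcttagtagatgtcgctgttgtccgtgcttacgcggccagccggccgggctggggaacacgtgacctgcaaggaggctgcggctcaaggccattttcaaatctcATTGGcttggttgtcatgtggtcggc
Hoxd11, chr2:74679308-74679556 (+): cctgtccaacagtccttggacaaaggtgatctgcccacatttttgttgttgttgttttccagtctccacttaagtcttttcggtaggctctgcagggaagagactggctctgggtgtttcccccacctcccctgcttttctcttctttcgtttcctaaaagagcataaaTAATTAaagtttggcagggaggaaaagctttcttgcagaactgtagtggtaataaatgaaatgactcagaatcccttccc
The window of Hoxd8 held a CCAAT box, that of Hoxd9 a GC box and that of Hoxd10 a CCAAT box, and none of the 3 held a TATA box, a Meis half-site, a homeodomain core or a Pbx-Hox site. The Hoxd11 window held a homeodomain core. RefSeq lists a second Hoxd11 start, whose window, not shown, held a GC box, a homeodomain core and a Pbx-Hox site. Over all 32851 windows of 250 bases, a CCAAT box was found in 33.8%, a GC box in 32.7%, a homeodomain core in 4.84%, a Meis half-site in 15.9%, a Pbx-Hox site in 7.68% and a TATA box in 12.4%. Counted over the full 250 bases, 36 of which are not printed for Hoxd9, Hoxd9 and Hoxd10 had 13 and 20 CG pairs and Hoxd8 had 6, against a median of 6 over all windows and 12.5 over the 24 windows of Hox genes. The Hoxd11 window shown had 2 CG pairs and that of its second start 20.

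The plot of levels by cluster and paralogue number shows a different profile in each kind of cell. To compare genes, CPM was divided by the length of the exons in kb. In GFP-negative mammary cells (n = 4 libraries, both lines) the order was led by Hoxd8 at 63.4 ± 13.3 CPM per kb (SD), Hoxd9 at 32.8 ± 12.7, Hoxd10 at 22.0 ± 11.4 and Hoxa5 at 9.15 ± 6.65. Hoxd8 (51.6 to 75.6 CPM per kb over the libraries) did not overlap with Hoxd9 (19.7 to 49.0), while Hoxd9 overlapped with Hoxd10 (12.6 to 38.5) and Hoxd10 with Hoxa5 (1.44 to 16.0). Below Hoxa5 came Hoxb7, Hoxa7, Hoxb6 and Hoxb5, with means from 5.73 down to 3.26 CPM per kb, each overlapping with the next. In brown adipocytes (n = 4) the order was Hoxa5 at 22.8 ± 3.18 CPM per kb, then Hoxc5 at 8.71 ± 4.56, Hoxb2 at 7.42 ± 5.03, Hoxa7 at 6.85 ± 0.747 and Hoxb7 at 6.60 ± 7.27. Hoxa5 stood clear of the others, from 19.8 to 26.7 CPM per kb, and the 4 genes after it overlapped. Hoxd8 was the highest member in the Myf5 GFP-positive libraries too, at 21.2 ± 7.495 CPM per kb (n = 2), and Hoxa5 in the Ucp1 GFP-positive libraries, at 33.9 ± 11.1 (n = 2).

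**Figure D1:**
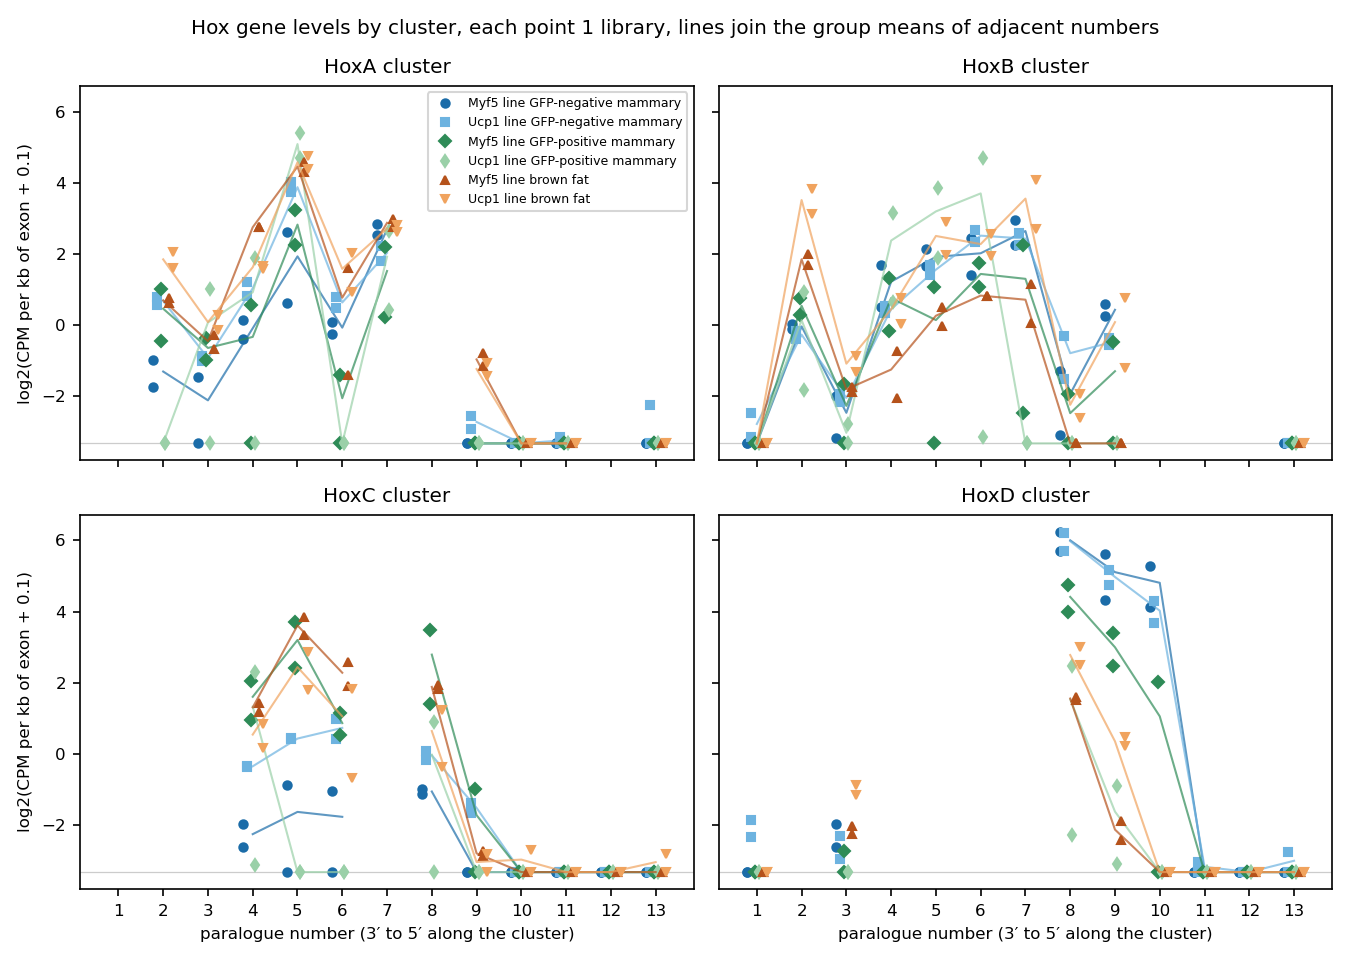
Level of every Hox gene with counts, by cluster (panels) and paralogue number (x axis), as log2(CPM per kb of exon + 0.1) on the y axis. Each point is 1 library and lines join the group means of adjacent paralogue numbers. Hoxd8 to Hoxd10 stand highest in the GFP-negative mammary libraries (dark and light blue), Hoxa5 in brown adipocytes (brown and orange) and the Ucp1 GFP-positive mammary libraries (light green), and numbers from 11 on lie at the baseline.

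HoxD took most of the Hox transcripts in GFP-negative mammary cells and little in brown adipocytes. In the former, HoxD made up 75.2% ± 5.66 of the summed CPM per kb of all Hox genes (SD, n = 4), HoxA 11.6% ± 4.61, HoxB 11.4% ± 1.13 and HoxC 1.78% ± 1.45. Brown adipocytes had 48.4% ± 6.38 from HoxA, 24.1% ± 16.0 from HoxB, 21.1% ± 12.2 from HoxC and 6.46% ± 2.64 from HoxD (SD, n = 4). Hoxd8, Hoxd9 and Hoxd10 alone gave 68.6% to 80.6% of the sum in the GFP-negative libraries and 3.50% to 8.61% in brown adipocytes. The Myf5 GFP-positive libraries lay between, with 31.0% and 51.8% from these 3 genes, and they carried a HoxC share of 44.0% and 14.4%. In the Ucp1 GFP-positive libraries these 3 HoxD genes gave 0.167% and 7.89%. Being shares, these values fall for one cluster when another is higher, and no test was made of them.

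**Figure D2:**
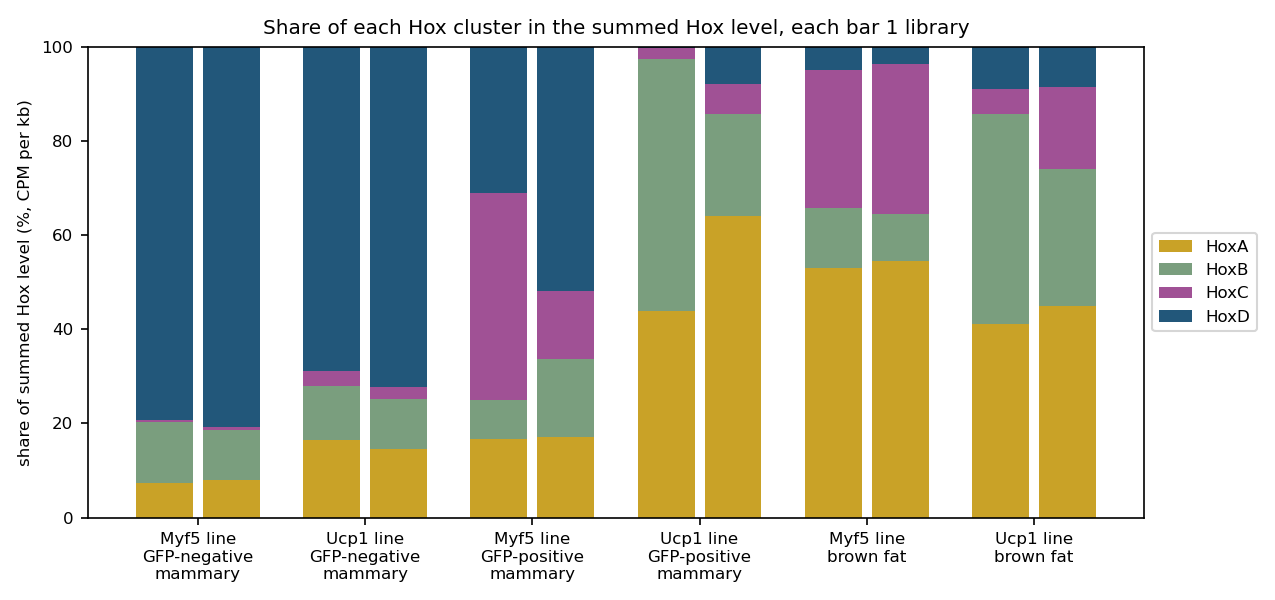
Share of each Hox cluster (colours) in the summed Hox level of a library, in % of CPM per kb on the y axis, with 1 bar per library and 2 bars per group. HoxD fills 68.8% to 80.7% of the bars of the 4 GFP-negative mammary libraries and 3.64% to 8.93% of those of brown adipocytes.

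The mean paralogue number was higher in the GFP-negative mammary cells than in brown adipocytes. Weighted by level (CPM per kb), the mean paralogue number of the Hox transcripts was 8.31 and 8.03 in the Myf5 GFP-negative libraries, 7.59 and 7.73 in the Ucp1 GFP-negative libraries and between 5.27 and 5.30 in all 4 brown adipocyte libraries. The 4 values for brown adipocytes lay closer together than those of any mammary group, although their clusters differed in share. The mean number was 6.43 and 7.01 in the Myf5 GFP-positive libraries, and 5.17 and 5.31 in those of the Ucp1 line, beside brown adipocytes. In the latter 2 libraries, 10 and 12 of the 20 Hox genes with at least 1 CPM in their GFP-negative partners were under 3 counts. Their make-up also differed, with 39.8% and 75.2% of the level from paralogue 5 and 34.6% and 0.0165% from paralogue 6. The part of the missing genes in their means was not tested. The mean paralogue number includes the HoxD share given before. Within HoxD it was 8.55 to 8.87 in GFP-negative cells and 7.83 to 7.95 in brown adipocytes, and within HoxB 5.76 to 6.07 and 3.90 to 5.04. Hoxb2 made up 7.42 of the 22.2 CPM per kb of HoxB in brown adipocytes and 0.803 of 17.7 in GFP-negative cells. Over 27.3% of its exon bases, its reads cannot be told from those of an RNA of the opposite strand (given later). The HoxB mean was not computed without Hoxb2. Within HoxA the Ucp1 GFP-negative libraries, at 5.06 and 5.17, lay among the brown adipocytes (4.99 to 5.18), and those of the Myf5 line were above, at 6.34 and 5.66. Paralogues 9 to 13 held 35.7% ± 5.86 of the summed level in GFP-negative mammary cells and 1.69% ± 1.13 in brown adipocytes (SD, n = 4 each). Paralogues 1 to 3 held 1.48% ± 0.688 and 12.6% ± 5.39, and in brown adipocytes 7.42 of their 11.3 CPM per kb came from Hoxb2. Without the highest member of each library (Hoxd8 or Hoxa5) the mean number was 7.33 to 8.5 in GFP-negative cells and 5.36 to 5.42 in brown adipocytes. In GFP-negative cells Hoxd9 and Hoxd10 remain in that mean, so it does not show a difference beyond these HoxD genes. The mean was not computed without them.

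**Figure D3:**
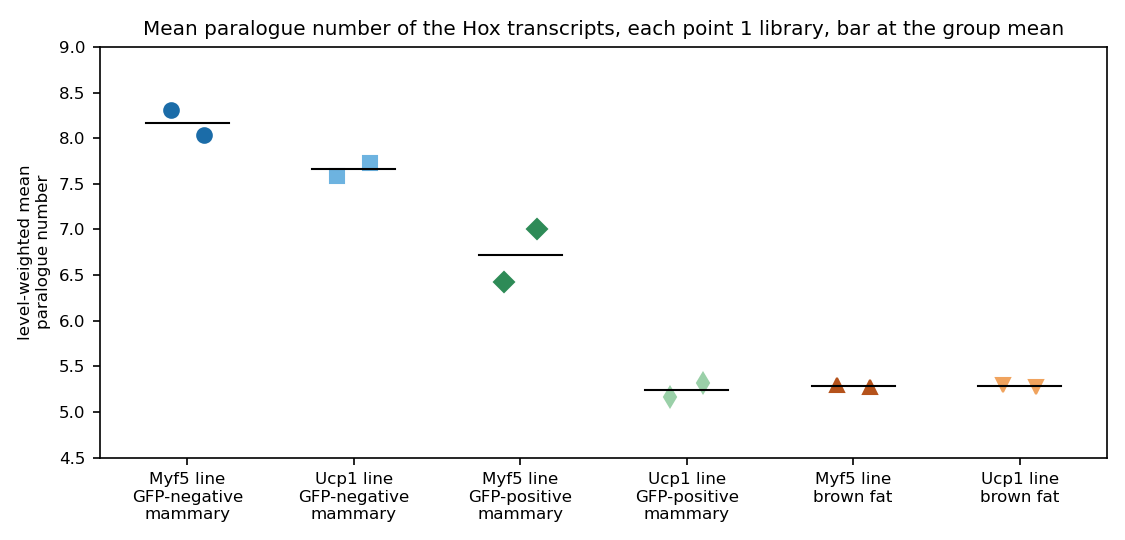
Level-weighted mean paralogue number of the Hox transcripts (y axis, shown from 4.5 to 9) in each library (points) of the 6 groups (x axis), with a bar at the mean of the 2 libraries. GFP-negative mammary libraries lie between 7.59 and 8.31, brown adipocytes between 5.27 and 5.30.

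GFP-negative mammary cells against brown adipocytes is the comparison with 4 libraries a side and without the libraries that stood apart. It asks which Hox genes differ between the mammary and the brown fat cells of these lines. Hoxd8, Hoxd9 and Hoxd10, the middle genes of HoxD, were higher in the mammary cells, and Hoxa5, Hoxa9, Hoxb2 and Hoxc5 were lower. So 3 of the 24 tested members were called higher, where 14.6% of all 16953 genes tested were, and 4 were called lower, against 12% (edgeR's quasi-likelihood test over all 12 libraries, Benjamini-Hochberg adjusted p under 0.05 over all genes). As a share, the members' counts are near these backgrounds. Fitted without the Ucp1 GFP-positive libraries, the calls were 3 higher and 6 lower, with Hoxc4 and Hoxc8 added, where 23.3% and 18.3% of 16521 genes were called. The median log2 fold change of the tested members was -1.12, against 0.35 for all genes. In bulk RNA, fewer cells of a type and less RNA per cell cannot be told apart. Markers of other cell types were also higher in the GFP-negative libraries. All 6 fibroblast markers were called higher, with sums of 478 to 2915 CPM against 36.7 to 85.5 CPM in brown adipocytes. So were 3 of 3 endothelial markers (1883 to 2892 against 8.30 to 1475 CPM), 2 of 3 immune markers (1145 to 1584 against 3.54 to 59.3 CPM), 2 of 3 pericyte markers (346 to 1128 against 6.47 to 500 CPM) and 2 of 3 Schwann cell markers (56.8 to 165 against 3.05 to 6.29 CPM). The 3 milk markers were all called higher too, at 38298 to 81923 CPM against 0 to 0.122 CPM. In the GFP-negative libraries that is above the basal markers. Of 4 luminal markers, 3 were called higher (347 to 453 against 1.89 to 12.1 CPM). The part of such cells, or of their RNA, in the Hox levels was not tested.

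Hoxd8 had 143 and 207 CPM in the Myf5 GFP-negative libraries, 142 and 203 CPM in those of the Ucp1 line, and 8.06, 7.51, 21.8 and 15.2 CPM in brown adipocytes (Myf5 line first). Every mammary value was above every brown adipocyte value, and the lines did not separate among the mammary cells. The means were 174 ± 36.5 and 13.2 ± 6.77 CPM (SD, n = 4), a log2 fold change of 3.86 (SE 0.90, edgeR adjusted p = 0.0133). That call was lost, with adjusted p from 0.0591 to 0.0833, when any of the 4 brown adipocyte libraries was left out. Hoxd9, one of the paralogue 9 genes, had 42.2, 105, 56.7 and 76.8 CPM in the GFP-negative libraries and 0.366, 0.183, 2.73 and 2.30 CPM in brown adipocytes. Here too the groups were apart, and the 2 Ucp1 brown adipocyte libraries were above those of the Myf5 line. The log2 fold change was 6.39 (SE 0.94, edgeR adjusted p = 0.00166), and the call held with each of the 12 libraries left out in turn (adjusted p at most 0.0215). Hoxd10 had 69.9, 31.3, 22.9 and 35.8 CPM in the GFP-negative libraries, and no read in any of the 4 brown adipocyte libraries. Against 3 counts over those 4 libraries, a floor of 0.0743 CPM, it was at least 538-fold higher in the mammary cells (edgeR adjusted p = 0.0130, and 0.0515 and 0.0640 without either Ucp1 brown adipocyte library). The exons of Hoxd8 and Hoxd9 overlap no other annotated gene, and 5.7% of the exon bases of Hoxd10 lie in another gene of the same strand.

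Hoxa5, known for its part in the lung and the skeleton of the neck and thorax, was the highest Hox gene of the brown adipocytes. It had 37.1, 45.0, 50.2 and 39.0 CPM there and 2.71, 11.3, 24.7 and 30.1 CPM in the GFP-negative mammary libraries. The groups did not overlap, and the Ucp1 line was above the Myf5 line among the mammary cells. The log2 fold change was -1.63 (SE 0.52, edgeR adjusted p = 0.0456), close to the threshold. It was not called without Myf5 GFP-negative library 1, either Ucp1 GFP-negative library or any brown adipocyte library (adjusted p 0.104 to 0.180), nor without the filter on low counts (0.0637). Hoxc5 had 30.8, 44.0, 10.5 and 22.4 CPM in brown adipocytes and 0, 1.38, 3.79 and 3.91 CPM in the GFP-negative cells, with a log2 fold change of -3.92 (SE 1.14, edgeR adjusted p = 0.0360). The call was lost in 7 of the 12 fits with 1 library left out: Myf5 GFP-positive library 1, either Ucp1 GFP-negative library, or any brown adipocyte library (adjusted p up to 0.151). Hoxa9 was low throughout: 1.95, 2.66, 2.10 and 1.53 CPM in brown adipocytes, 0 in both Myf5 GFP-negative libraries and 0.180 and 0.397 CPM in those of the Ucp1 line. Its mean was 14.3 times higher in brown adipocytes (edgeR adjusted p = 0.0145), and the call was lost without either Ucp1 GFP-negative library or any brown adipocyte library (0.0514 to 0.121). Hoxa9 and Hoxd9, which share a paralogue number, thus had opposite directions.

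Hoxb2, which acts in the hindbrain of the embryo, was called lower in the mammary cells, with 3.20, 2.91, 2.31 and 2.78 CPM against 10.99, 13.5, 48.8 and 30.3 CPM. The log2 fold change was -2.98 (SE 0.76, edgeR adjusted p = 0.0188), and leaving out any of these 8 libraries gave an adjusted p of 0.0506 to 0.105. In the annotation 27.3% of the exon bases of Hoxb2 and 52.9% of those of Hoxb3 lie under Hoxb3os, an antisense RNA of the opposite strand. Hoxb3os itself had 9.77, 12, 50.4 and 28.4 CPM in brown adipocytes and 0.405 to 0.710 CPM in the GFP-negative cells (log2 fold change -5.16, SE 0.86, edgeR adjusted p = 0.00298). Library by library, brown adipocyte values of Hoxb2 and Hoxb3os were nearly equal. The strand setting of the counting is not given in the sources used here. Over the shared bases, reads of Hoxb2 and its antisense partner therefore cannot be told apart.

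Among the members that were not called, Hoxb4, Hoxb5, Hoxb6 and Hoxb7 had overlapping values in the 2 tissues. Hoxb5 had means of 9.10 ± 1.99 CPM in the GFP-negative cells and 9.31 ± 8.27 CPM in brown adipocytes (log2 fold change 0.39, SE 1.13), and Hoxb7 8.84 ± 2.15 and 10.2 ± 11.2 CPM (0.43, SE 1.03). With SEs above 1 on the log2 scale, equal levels are not shown. Hoxa7 had 14.9 ± 4.48 and 19.7 ± 2.15 CPM (log2 fold change -0.44, SE 0.66). Groups that did not overlap were 3 of the 24 members above and 8 below, where 19.4% and 18.0% of all tested genes had no overlap in these directions. Besides the lower calls these were Hoxa3, Hoxa4, Hoxb3 and Hoxc4. Per GENCODE M21, 62.8% of the exon bases of Hoxd3 and 27.1% of those of Hoxa3 are shared with other genes, and their values are uncertain for that reason.

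**Figure D4:**
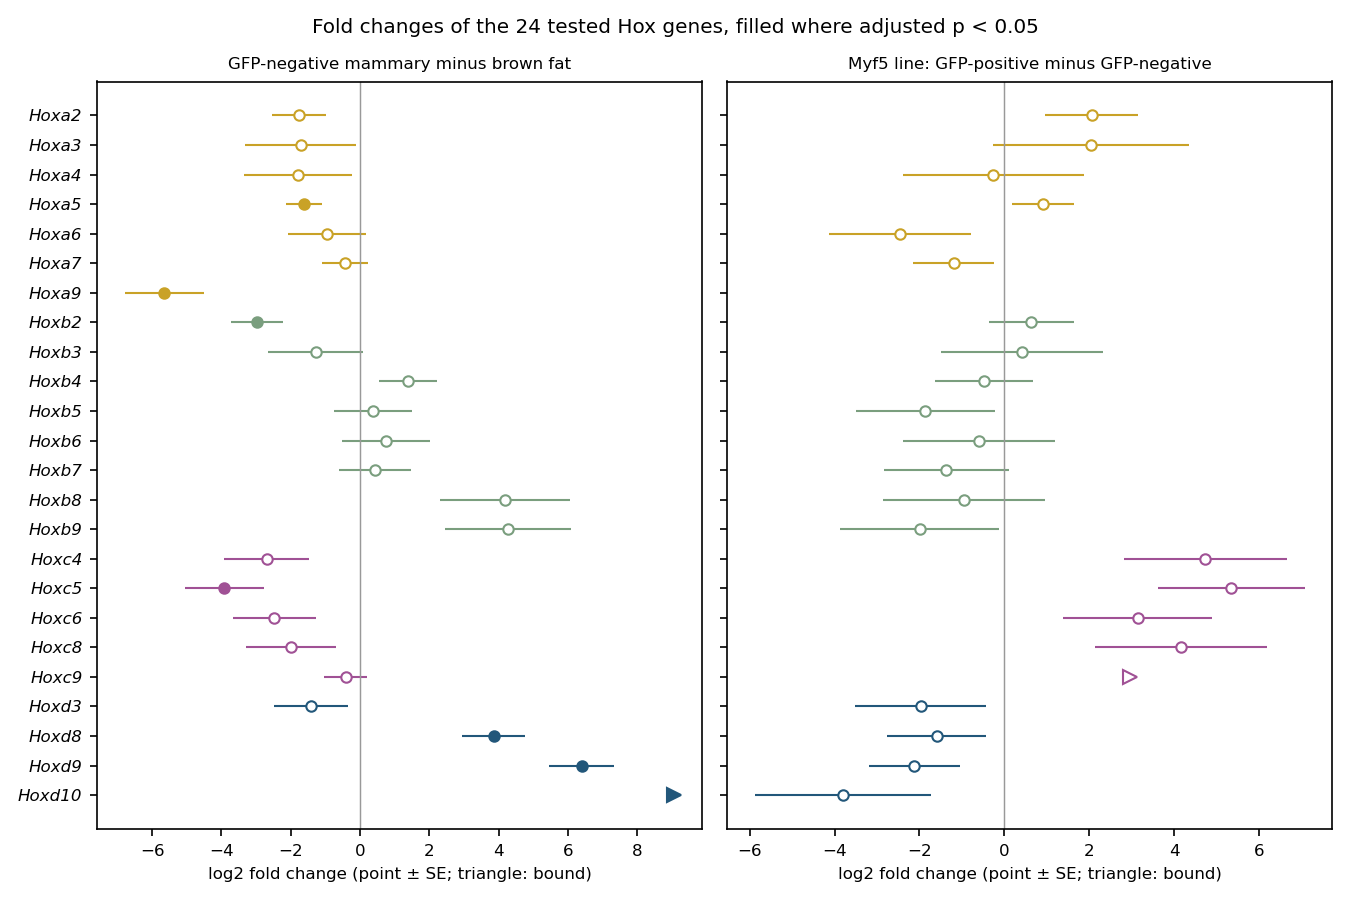
Log2 fold changes (x axis, point ± SE, edgeR over 12 libraries) of the 24 tested Hox genes (y axis, ordered by cluster and number, coloured by cluster). Left, GFP-negative mammary cells minus brown adipocytes, and right, GFP-positive minus GFP-negative cells of the Myf5 line. Filled symbols passed an adjusted p of 0.05, triangles stand at the bound where 1 group was at 0 in all libraries, and Hoxa9 is not drawn on the right because both groups were at 0. On the left, 3 HoxD genes lie to the right of 0 and 4 genes of the other clusters are filled to its left. On the right none is filled.

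Noncoding genes lie among the Hox genes of each cluster. Of 33 in the files, 12 had a count in any library and 9 were tested, and the 6 microRNA genes had none. Gm14396, a long noncoding RNA gene that lies between Hoxd10 and Hoxd9, had 1.64, 0.567, 0.571 and 0.367 CPM in the GFP-negative mammary libraries and no read in the other 8 libraries. It was at least 10.6-fold higher than in brown adipocytes (edgeR adjusted p = 0.0323). Haglr, transcribed from the 3′ end of HoxD on the other strand, had 1.69, 2.51, 0.481 and 0.948 CPM against 0.122, 0, 0 and 0.170 CPM (edgeR adjusted p = 0.0458). Brown adipocyte counts of Haglr were at most 2, so no fold is given. With Hoxb3os, 2 of the 9 tested noncoding genes were called higher and 1 lower, where 14.6% and 12% of all genes were called. Gm15050, inside HoxA, was called lower too in the fit without the Ucp1 GFP-positive pair (0.764 and 3.91 CPM, edgeR adjusted p = 0.0123).

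The same contrast over all mammary libraries (8 against 4) called 2 members higher and 7 lower, where 13.4% and 22.5% of all tested genes were called. The higher members were Hoxd8 and Hoxd9, at log2 fold changes of 2.33 (SE 0.79) and 4.09 (SE 0.82, edgeR adjusted p = 0.0434 and 0.00414). The lower ones were Hoxa2, Hoxa6, Hoxa9, Hoxb2, Hoxc5, Hoxc6 and Hoxd3. With 1 library left out at a time, the call of Hoxd8 was lost in 10 of 12 fits, of Hoxd3 in 6, of Hoxa6 in 5 and of Hoxc6 in 2, and the others held. Without the Ucp1 GFP-positive libraries it was 3 higher and 5 lower (background 23.6% and 21.1%): Hoxa2, Hoxa6, Hoxc6 and Hoxd3 were no longer called, while Hoxa5, Hoxc4 and Hoxd10 were. Within the Myf5 line, the GFP-positive mammary cells exceeded the brown adipocytes in Hoxd9 (11.6 and 22.1 against 0.366 and 0.183 CPM, log2 fold change 5.94, SE 1.34, edgeR adjusted p = 0.0160). They had no read of Hoxa9, which was at least 34.2-fold lower than the 2.31 CPM of the brown adipocytes (edgeR adjusted p = 0.0254). These were the only 2 calls of that contrast over 12 libraries, 1 in each direction, beside 10.9% of genes higher and 8.84% lower. The call of Hoxd9 was lost without either Myf5 brown adipocyte library (adjusted p 0.0948 and 0.115), and that of Hoxa9 in 8 of 12 fits without 1 library (up to 0.104). Hoxd8 was called higher in the fit without the Ucp1 GFP-positive pair (edgeR adjusted p = 0.00162). The same contrast in the Ucp1 line called 0 members higher and 9 lower (background 5.34% and 22.5%), and 8 of those 9 had no read in either GFP-positive mammary library, the exception being Hoxb2. The calls of Hoxa2, Hoxb7 and Hoxc5 held with each library left out, and the other 6 were each lost in at least 1 such fit. Hoxd9 was not among the calls there.

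GFP-positive against GFP-negative mammary cells of the Myf5 line asks whether cells with a history of Myf5-Cre carry another Hox profile than their unlabelled neighbours. edgeR called 0 of the 24 members in this contrast, as it called 0% of all genes tested. The smallest adjusted p of a member was 0.364, and 3 members had an unadjusted p under 0.05. DESeq2 called 2 members (Hoxc4 and Hoxc5) and limma-voom 1 (Hoxc5). Without the Ucp1 GFP-positive libraries edgeR still called 0, with Hoxc4 nearest at an adjusted p of 0.0520, where 1.40% of all genes were called. Groups did not overlap for 7 members above and 9 below, where 14.5% and 20.2% of all genes had no overlap in these directions. Those above were Hoxc4, Hoxc5, Hoxc6 and Hoxc8, and also Hoxa2, Hoxa3 and Hoxb2. Those below were Hoxd3, Hoxd8, Hoxd9 and Hoxd10, and also Hoxa6, Hoxa7, Hoxb5, Hoxb7 and Hoxb9. HoxC and HoxD thus lay on opposite sides, but neither side was limited to 1 cluster.

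HoxC members were on the higher side in the GFP-positive cells. Hoxc5 had 40.0 and 16.1 CPM in the GFP-positive and 0 and 1.38 CPM in the GFP-negative libraries (log2 difference 5.33, SE 1.73). Hoxc8, a gene of the mammary bud, had 31.4 and 7.18 against 1.02 and 1.13 CPM (4.15, SE 2.02). For Hoxc4 the values were 10.3 and 4.75 against 0.399 and 0.162 CPM (4.72, SE 1.92), and for Hoxc6 they were 5.04 and 3.24 against 0 and 0.931 CPM (3.13, SE 1.76). In all 4 genes both GFP-positive libraries were above both GFP-negative ones, and the first GFP-positive library was above the second. The fibroblast markers lay the same way, at 17742 CPM in the first and 9550 CPM in the second GFP-positive library against 822 and 478 CPM in the GFP-negative ones, and 3 pericyte markers at 2497 and 2136 CPM against 587 and 346 CPM. With 2915 and 2326 CPM of fibroblast markers, the Ucp1 GFP-negative libraries lay between the GFP-negative and GFP-positive libraries of the Myf5 line. Their Hoxc5 (3.79 and 3.91 CPM), Hoxc8 (2.71 and 2.23 CPM) and Hoxc4 (mean 1.76 CPM) lay between as well. Hoxc6 did not: at 3.75 ± 1.05 CPM (SD, n = 2), it overlapped with the Myf5 GFP-positive libraries. Brown adipocytes had 36.7 to 85.5 CPM of fibroblast markers beside 10.5 to 44.0 CPM of Hoxc5. The Ucp1 GFP-positive libraries, which lacked many genes, are not compared here. The part of fibroblasts and pericytes in the HoxC values was not tested.

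HoxD members were on the lower side. Hoxd8 had 43.5 and 72.6 CPM in the Myf5 GFP-positive libraries against 143 and 207 CPM (log2 difference -1.59, SE 1.16), and Hoxd9 11.6 and 22.1 against 42.2 and 105 CPM (-2.12, SE 1.07). Hoxd10 differed between the GFP-positive libraries themselves, with 0 and 7.18 CPM against 69.9 and 31.3 CPM (-3.81, SE 2.07). None passed the test (edgeR adjusted p 0.846, 0.618 and 0.695). To set these against genes of like abundance, all protein-coding genes of the same level in the Myf5 GFP-negative cells were ranked in each GFP-positive library, as a description. Hoxd10 was at or above 0.188% and 0.439% of the other 1595 genes of 50 to 100 CPM, Hoxd9 5.20% and 4.70% of them, and Hoxd8 8.61% and 17.5% of 1126 genes of 100 to 300 CPM. The 3 genes were chosen with their low values known, so these ranks only describe them. The basal myoepithelial markers were lower in the same libraries, at 2175 and 3457 CPM against 7972 and 14782 CPM, and so were 4 luminal markers, at 29.1 to 44.0 CPM against 347 to 439 CPM. Their part in the HoxD values was not tested. Hoxb7 (0.125 and 7.18 CPM) and Hoxb5 (0 and 5.597 CPM) also differed between the 2 GFP-positive libraries, more than between the GFP-negative ones (11.8 and 7.24, and 11.9 and 8.62 CPM).

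**Figure D5:**
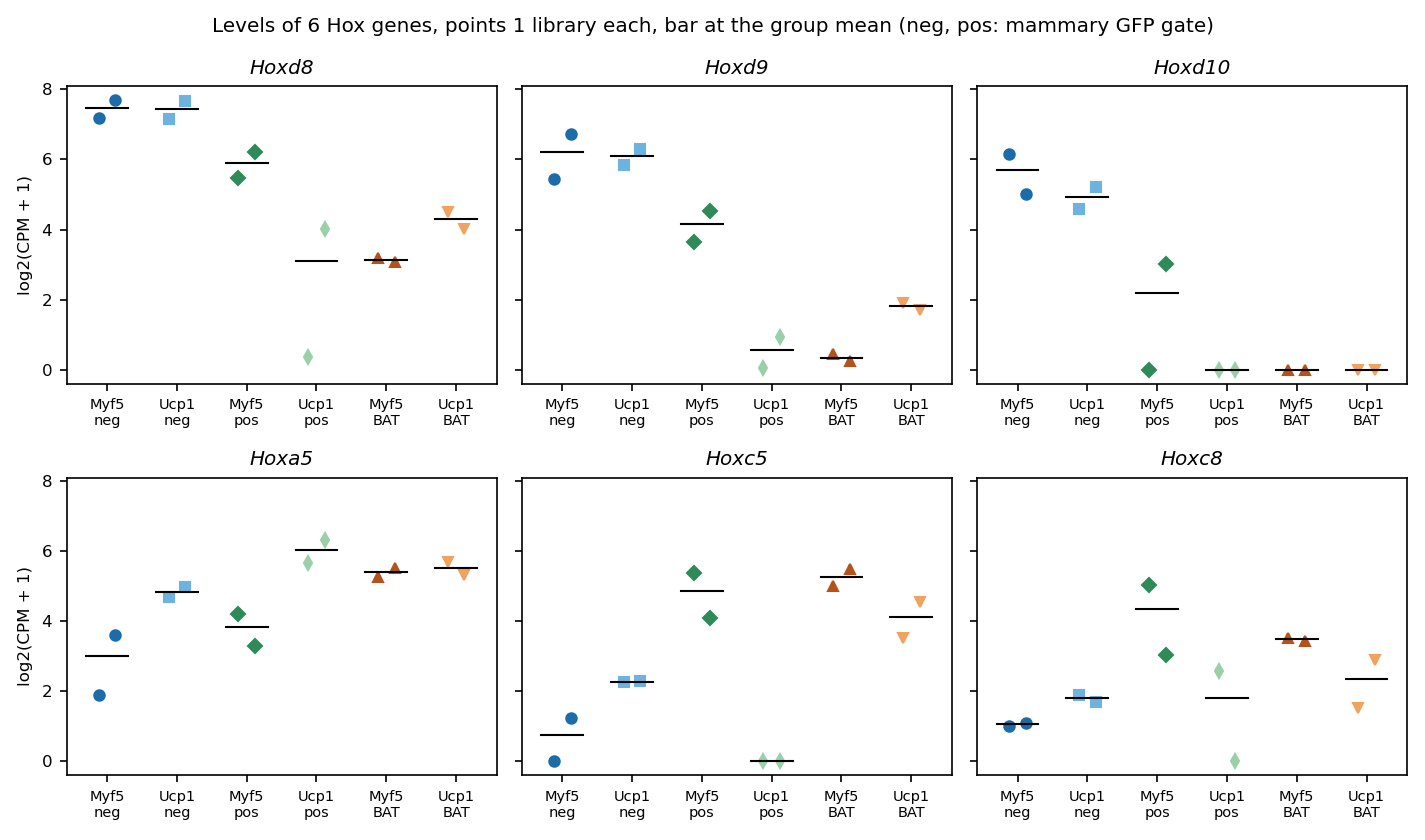
Levels of 6 Hox genes as log2(CPM + 1) (y axis) in each library (points) of the 6 groups (x axis, neg and pos being the GFP gates of mammary cells), with a bar at the group mean. Hoxd8, Hoxd9 and Hoxd10 are highest in the GFP-negative mammary cells of both lines. Hoxc5 and Hoxc8 are above 1 CPM in both Myf5 GFP-positive and all brown adipocyte libraries. Hoxc8 is also above 1 CPM in all 4 GFP-negative mammary libraries. Hoxc5 has a mean of 2.27 CPM in those 4 and is at 0 in 1 of them.

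In the Ucp1 line 8 members were called lower in the GFP-positive than in the GFP-negative mammary cells and 0 higher, where 14% of all genes were called lower. They were Hoxa2, Hoxa6, Hoxb7, Hoxc5, Hoxc6, Hoxd8, Hoxd9 and Hoxd10, and 6 of them had no read in either GFP-positive library. Hoxd9 had 0.0368 and 0.922 CPM against 56.7 and 76.8 CPM (log2 fold change -7.08, SE 1.35, edgeR adjusted p = 0.00780), and its call held with each library left out. Hoxd8 had 0.294 and 15.0 CPM against 142 and 203 CPM (-4.49, SE 1.31, edgeR adjusted p = 0.0494), and 10 of the 12 fits with 1 library left out lost it. Hoxd10 was at least 669-fold lower than its 22.9 and 35.8 CPM (edgeR adjusted p = 0.0484, lost in 8 of those 12 fits). Among the others, Hoxa2 held throughout, and Hoxb7, Hoxc5, Hoxc6 and Hoxa6 lost their calls in 1, 5, 7 and 10 of the 12.

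Many genes were missing from these 2 libraries. Of protein-coding genes with 20 to 50 CPM in the Ucp1 GFP-negative cells, 15.9% and 15.8% were below 3 counts in one and the other GFP-positive library, in that order, and 5.55% were so in both, Hoxd10 among them. At 5 to 10 CPM it was 52.9% and 55.4%. Of the 20 Hox genes with at least 1 CPM in the Ucp1 GFP-negative cells, 10 and 12 were under 3 counts, and 8 in both. At 50 to 100 CPM it was 4.72% and 3.69%, and Hoxd9 was at or above 4.07% and 4.83% of the 1844 other genes of that level. Hoxd8 was at or above 0.964% and 3.42% of 1141 genes of 100 to 300 CPM. Hoxa5, in contrast, had 48.9 and 78.4 CPM, above the 24.7 and 30.1 CPM of the GFP-negative cells, and at or above 75.0% and 92.2% of the genes of its level. Hoxb6 had 50.7 CPM in the first library and 0.0243 CPM in the second. How much of these differences comes with the missing genes was not tested. Between the GFP-positive cells of the 2 lines, 5 members were lower in the Ucp1 line (Hoxa2, Hoxb7, Hoxc5, Hoxc6 and Hoxd9), where 15.2% of all genes were. Those of Hoxa2 and Hoxc5 held with each library left out, Hoxb7 and Hoxd9 were lost without Myf5 GFP-positive library 2 (adjusted p 0.0677 and 0.0524), and Hoxc6 was lost in 5 of 12 fits.

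GFP-negative mammary cells of the 2 lines gave 0 calls among the 24 members and 0% among all genes (smallest adjusted p of a member 1, edgeR, or 0.688 without the Ucp1 GFP-positive pair, which also gave 0; 3 members had an unadjusted p under 0.05, and DESeq2 and limma-voom called 0). Brown adipocytes of the 2 lines also gave 0 calls among members, where 1.32% of all genes were called (smallest adjusted p 0.276; 2 members with an unadjusted p under 0.05; DESeq2 and limma-voom 0). Without the Ucp1 GFP-positive mammary libraries 1 member was called, Hoxd9, with 2.73 and 2.30 CPM in the Ucp1 line and 0.366 and 0.183 CPM in the Myf5 line (edgeR adjusted p = 0.0363, background 5.62%). The groups did not overlap in 13 members above and 5 below in the Ucp1 line, beside 31.3% and 28.3% of all genes. All 8 tested HoxB members were above, among them Hoxb2 (48.8 and 30.3 against 10.99 and 13.5 CPM) and Hoxb9 (4.10 and 0.850 CPM against 0). Tested HoxC members other than Hoxc9 were below, among them Hoxc8 (1.89 and 6.38 against 10.5 and 9.80 CPM). None passed the test over 12 libraries. The brown adipocyte markers were also apart, at 2556 and 7886 CPM in the Ucp1 line and 20603 and 24104 CPM in the Myf5 line, and endothelial markers at 1475 and 752 against 8.30 and 232 CPM, and their part was not tested.

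Hox proteins bind DNA together with cofactors of the Pbx, Meis and Pknox families. All 9 cofactor genes were tested, and in GFP-negative mammary cells against brown adipocytes 2 were called higher and 0 lower (median log2 fold change 0.94, all genes 0.35), where 14.6% and 12% of all genes were called. Without the Ucp1 GFP-positive pair it was 2 higher and 1 lower (background 23.3% and 18.3%), the lower one being Meis2 at means of 2.34 and 12.4 CPM (edgeR adjusted p = 0.00817). Pknox2 had 1.24, 11.6, 9.23 and 4.53 CPM in the mammary cells and no read in brown adipocytes, at least 89.4-fold higher (edgeR adjusted p = 0.00679). Meis1 had means of 3.89 and 4.20 CPM and was not called.

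Polycomb and Trithorax proteins keep Hox genes off or on after the embryo has patterned them. Of 22 such regulators, all tested, 3 were higher in the GFP-negative cells and 1 was lower (median log2 fold change 0.57), beside 14.6% and 12% of all genes, so these counts lie at or under the background. With the pair of Ucp1 GFP-positive libraries left out, 5 were higher and 1 lower, with Ezh1 and Suz12 added (background 23.3% and 18.3%). Kdm6b, a demethylase of the Polycomb mark, had means of 95.1 ± 49.8 and 25.4 ± 27.7 CPM (2.19, SE 0.51, edgeR adjusted p = 0.0133). Kmt2a, the Trithorax methyltransferase that keeps Hox genes active, had 48.6 ± 20.97 and 16.1 ± 8.56 CPM (1.68, SE 0.45, 0.0234). Rnf2, the ubiquitin ligase of Polycomb complex 1, had 74.1 ± 33.8 and 22.0 ± 10.5 CPM (1.80, SE 0.52, 0.0304).

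Retinoic acid and the Cdx factors switch Hox genes on in the embryo. Cdx1, Cdx2 and Cdx4 had no read in any library. Of the 12 genes of this list 7 were tested, and 3 were higher in the GFP-negative cells and 0 lower (median log2 fold change 2.56), where 14.6% and 12% of all genes were called. The fit without the Ucp1 GFP-positive pair had 4 higher, with Gdf11 added (background 23.3%). The 3 were the retinoic acid receptors Rarg (38.5 ± 4.56 against 5.6 ± 6.43 CPM, log2 fold change 3.36, SE 0.60, edgeR adjusted p = 0.00400) and Rara (45.1 ± 24.7 against 11.5 ± 7.10 CPM, 1.83, SE 0.48, 0.0220), and Cyp26b1, which breaks down retinoic acid (6.34 ± 7.01 against 0.429 ± 0.565 CPM, edgeR adjusted p = 0.0154). Among 24 other transcription factors of body position 18 were tested, and 1 was higher and 1 lower (median 1.24), or 4 higher and 2 lower without the Ucp1 GFP-positive pair. The shares of all genes were again 14.6% and 12%, or 23.3% and 18.3% without that pair. Lmx1b, the factor of dorsal limb identity, had 5.81, 26.4, 9.71 and 5.93 CPM in the GFP-negative mammary cells and no read in brown adipocytes, at least 161-fold higher (edgeR adjusted p = 0.0109). In the GFP-positive mammary libraries it had 0.422 CPM in 1 of the 4 and no read in the others. Between GFP-positive and GFP-negative cells of the Myf5 line no gene of the 4 lists was called over 12 libraries (0% of all genes). Without the Ucp1 GFP-positive pair 1 cofactor, 1 upstream gene and 1 positional factor were called higher, beside 1.40% of all genes called in either direction. Among these were Meis2 (means of 28.8 and 1.42 CPM, edgeR adjusted p = 0.0465) and Aldh1a1, which makes retinoic acid (136 and 5.70 CPM, 0.0251). The Ucp1 line had 10 calls in that contrast over the 4 lists, all lower in the GFP-positive cells, where 14% of all genes were called lower. Men1, a partner of Kmt2a, had means of 1.14 and 42.0 CPM (edgeR adjusted p = 0.00690). The other 9 (Meis1, Pknox2, Rarb, Aldh1a1, Tbx15, Shox2, Meox1, Irx5 and Lmx1b) had no read in either GFP-positive library, against means of 3.20 to 22.1 CPM, levels at which many genes were missing there.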

How the data were processed

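Raw read counts per Ensembl gene, 1 file per library, were deposited by the authors. The submitters' processing notes name TopHat, HTSeq, DESeq2 and mm10 without versions. How strand and multiply mapped reads were counted, and with which annotation, is not stated there. Per the labels' protocols, cDNA was made with the SMART-Seq v4 kit, which amplifies by PCR without molecular identifiers. 0 per-library columns were left unused. Symbols, exons and positions came from GENCODE M21 (mm10), and 37607 of 38924 identifiers had a symbol. Hox genes were matched by symbol. Exon length is the union of a gene's exons.

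Counts were fitted with edgeR 4.0.16 (R 4.3.3): 12 libraries, 1 mean per group, TMM scaling, filterByExpr with a minimum count of 10 (16953 genes), the quasi-likelihood test and Benjamini-Hochberg adjustment at 0.05 over all genes. SE is the log2 fold change over the square root of F. The fit was tested on simulated counts. Alternatives were DESeq2 1.42.0, limma-voom (limma 3.58.1), DESeq2's size factors, no filter, a replicate block, milk and mitochondrial genes removed, leaving out the Ucp1 GFP-positive pair (10 libraries, 16521 genes) and leaving out each library. Python 3.11.15 (pandas 2.3.3, numpy 2.4.6) made the tables, matplotlib 3.10.9 the plots. A fold against a group at 0 is computed against 3 counts over the group.

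Members and lists were chosen with earlier results of these data known. Any Hox gene could be named. Of each other list, and of the noncoding genes inside a cluster, the rule names the called genes with the lowest adjusted p (6 at most), and of the flanking genes the nearest coding gene on each side. Meis1 in the tissue comparison was named after its values were seen. Some called genes of the lists are counted but not reported here by name.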

Additional observations from a re-analysis of the deposited data

Results flagged for a closer look

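The effect of the GFP label on 3 Hox genes differed between the driver lines, as tested by the interaction term in edgeR, which called 3 of the 24 tested members, all lower in the Ucp1 line (10.7% of all genes were called lower). The GFP-positive minus GFP-negative difference of the Ucp1 line minus that of the Myf5 line was -10.95 on the log2 scale for Hoxa2 (SE 1.88, edgeR adjusted p = 0.00737), -14.75 for Hoxc5 (SE 2.85, adjusted p = 0.0120) and -12.51 for Hoxc6 (SE 3.0, adjusted p = 0.0307). All 3 genes had no read in either Ucp1 GFP-positive library, so these fitted values depend on the prior count and bound nothing. In the Myf5 line the 3 genes had higher values in the GFP-positive cells without a call (Hoxa2 2.27 against 0.542 CPM, Hoxc5 28.1 against 0.688 CPM, Hoxc6 4.14 against 0.465 CPM, means of 2). In the Ucp1 line they were lower in the GFP-positive cells, which were at 0, than in the GFP-negative ones (2.67, 3.85 and 3.75 CPM). At 2 to 5 CPM in the Ucp1 GFP-negative cells, 52.5% of all protein-coding genes had under 3 counts in both Ucp1 GFP-positive libraries, and the part of that in these 3 results was not tested. The calls of Hoxa2 and Hoxc5 held with each library left out, and that of Hoxc6 was lost in 5 of 12 such fits (adjusted p up to 0.0809).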

How the results depend on the processing

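No direction of a called Hox gene turned under any alternative. In GFP-negative mammary cells against brown adipocytes, 7 calls in the reported fit compare with 7 under DESeq2's median-of-ratios size factors, 6 without the filter on low counts, 10 by DESeq2, 7 by limma-voom and 9 without the Ucp1 GFP-positive libraries. Counts of called members that moved by over 1.5 times were those within the Myf5 line between tissues (2 reported; 4 by DESeq2, 1 with the replicate block), the Myf5 label (0; 2 by DESeq2, 1 by limma-voom), the Ucp1 label (8; 13 by limma-voom, 5 with the replicate block, 5 with milk and mitochondrial genes removed), the label by line difference (3; 5 by DESeq2, 6 by limma-voom), the brown adipocytes of the 2 lines (0; 1 without the Ucp1 GFP-positive libraries) and the GFP-positive cells of the 2 lines (5; 9 by DESeq2, 8 by limma-voom). The labels do not say that replicate numbers pair the groups. Deviations of same-numbered libraries correlated at -0.07 to 0.289 over genes, the highest being the GFP gates of the Myf5 line, with 2 pairs each, so a pairing is not shown. The replicate block gave 6 calls between GFP-negative cells and brown adipocytes. It ended the calls of Hoxa5 there (adjusted p 0.0574), of Hoxa6, Hoxd8 and Hoxd10 for the Ucp1 label (0.0632, 0.0537 and 0.0770), of Hoxd8 over all mammary cells (0.0672), of Hoxa9 within the Myf5 line (0.0561) and of Hoxb2 and Hoxb9 within the Ucp1 line (0.0501 and 0.0733).

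With each library left out in turn, where a group left with 1 library is assumed to vary like the others, the calls ranged from 1 to 9 for GFP-negative cells against brown adipocytes, 5 to 14 for all mammary cells against brown adipocytes, 0 to 3 within the Myf5 line, 3 to 11 within the Ucp1 line, 0 to 1 for the Myf5 label, 2 to 10 for the Ucp1 label, 2 to 7 for the label by line difference, 0 to 1 for the brown adipocytes of the 2 lines, 0 to 0 for the GFP-negative cells of the 2 lines and 4 to 11 for the GFP-positive cells of the 2 lines. For GFP-negative cells against brown adipocytes 1 call was left without either Ucp1 brown adipocyte library, 2 without either Myf5 brown adipocyte library and 3 without either Ucp1 GFP-negative library. Over all mammary cells it was 14 without either Ucp1 GFP-positive library, and 5 without Ucp1 GFP-negative library 1 or Ucp1 brown adipocyte library 2. Within the Myf5 line 0 were called without either Myf5 brown adipocyte library, and 1 without either Ucp1 GFP-negative or either Ucp1 brown adipocyte library. Within the Ucp1 line it was 4 without either GFP-negative library, and 5 and 3 without brown adipocyte library 1 and 2. For the Ucp1 label it was 5 without either Myf5 GFP-negative library, 3 and 2 without Ucp1 GFP-negative library 1 and 2, 4 and 3 without Myf5 brown adipocyte library 1 and 2, and 3 without either Ucp1 brown adipocyte library. The label by line difference gave 5 without Myf5 GFP-positive library 1, and 7 and 6 without Ucp1 GFP-positive library 1 and 2, and the GFP-positive cells of the 2 lines gave 11 and 8 without those. The single calls of the Myf5 label and the brown adipocytes came without Ucp1 GFP-positive library 1 and without either Ucp1 GFP-positive library. The cause was not tested. DESeq2's median-of-ratios scaling shifted the median of all genes by -0.24 (log2) in GFP-negative cells against brown adipocytes, by -0.16 over all mammary cells and by 0.17 for the Ucp1 label. Depth limits the 13 members below the filter, for which no difference was detectable.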

Other observations

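Values of genes that flank the clusters are given beside those of the Hox genes. Evx1, Evx2 and Ttll6 also flank clusters and are not described here. Mtx2, a nuclear gene for a mitochondrial protein, lies at the 3′ side of HoxD. It had a mean of 31.0 CPM in GFP-negative mammary cells and 218 CPM in brown adipocytes, opposite to Hoxd8 to Hoxd10. It was not called over 12 libraries (edgeR adjusted p = 0.133) but was without the Ucp1 GFP-positive libraries (0.000235). Skap2 beside HoxA (50.02 and 61.8 CPM), Skap1 beside HoxB (0.275 and 0.353 CPM) and both flanks of HoxC, Calcoco1 (66.2 and 40.4 CPM) and Smug1 (8.77 and 13.35 CPM), were not called in that comparison. Skap1 had 11.8 ± 8.30 CPM in the Ucp1 GFP-positive mammary cells against 0.288 ± 0.0249 CPM in their GFP-negative partners (SD, n = 2, edgeR adjusted p = 0.0378).

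Neighbouring HoxB genes differed between the 2 Ucp1 GFP-positive libraries. The first had 22.4 CPM of Hoxb4, 10.1 CPM of Hoxb5 and 50.7 CPM of Hoxb6, and the second 3.76, 40.4 and 0.0243 CPM, while Hoxb7 had no read in either.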
